A study of Mus musculus with 6 samples.

Results

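Ribosome biogenesis and RNA polymerase I (Pol I) genes were followed in hair follicle stem cells of the mouse after diphtheria toxin (DT) or saline. The 40 genes were chosen by name, with earlier results of these data known. They were matched by symbol to the Entrez identifiers of the deposited counts. All 40 were found among the 36528 genes of the files. The DT group and the saline group each had 3 libraries of polyadenylated RNA. All 6 libraries came from the skin of Lgr5-DTReGFP mice, in which the DT receptor and eGFP are carried at Lgr5, so that DT acts on cells that express it. The cells were sorted as CD49f-positive, CD34-positive and GFP-negative, that is, as stem cells without visible reporter. The labels give neither the DT dose, the time to collection, the age of the mice nor the stage of the hair cycle. They also do not say whether each library came from its own animals, so the p-values below cover the differences among these libraries, and those may be technical. DT-treated mice without the receptor were not analysed here.

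Ribosomes are built in the nucleolus. Pol I transcribes a long ribosomal RNA precursor there, small nucleolar RNA-protein particles (snoRNPs) of the box C/D and box H/ACA types modify it by methylation and pseudouridylation, and large sets of assembly factors fold and cut it into the small and the large subunit. Cells that leave rest and grow usually make more of this machinery, and Myc is a well-known activator of its genes. In the bulge, stem cells rest for long periods and are activated at the start of a hair cycle or after injury.

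The libraries held 15300755 to 25558859 reads in genes. Levels below are CPM, counts scaled to a common library size with TMM factors, in the order of libraries 1, 2 and 3. The 40 genes took 0.375% to 0.572% of these reads in DT and 0.281% to 0.305% in saline. Libraries of 1 group differed beyond counting noise, with a chi-square of 21.2 to 63.7 times its degrees of freedom, and each was kept as a sample. Cd34 and Itga6, which encodes CD49f, were present in all libraries. Cd34 was at 2348 ± 403 CPM in DT and 2804 ± 354 CPM in saline (SD, n = 3 each, log2 fold change -0.26, adjusted p = 0.264) and Itga6 at 98.8 ± 10.51 CPM in DT and 122 ± 20.5 CPM in saline (log2 fold change -0.31, adjusted p = 0.16). Of the 10 follicle stem cell markers listed 4 fell and 1 rose, where 11.9% of all genes fell and 17.2% rose. Lgr5, the locus of the receptor, was lower, at 7.11 ± 0.143 CPM in DT and 24.1 ± 7.20 CPM in saline (log2 fold change -1.76, adjusted p = 0.000864). The transcription factors Lhx2 (log2 fold change -1.09, adjusted p = 0.00696), Sox9 (log2 fold change -0.71, adjusted p = 0.0342) and Nfatc1 (log2 fold change -0.69, adjusted p = 0.0165) fell too, and the basal keratin Krt14 rose, at 8816 ± 514 CPM in DT and 2573 ± 331 CPM in saline (log2 fold change 1.78, adjusted p = 5.16e-05). These 4 were named after their values were seen, and their part in the members' change was not tested. Saline library 1 stood apart from the other libraries on the second principal component (56.9, against -34.5 to 7.22 in the other 5), and calls of members that change without it are given with those members.

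Of the 40 members, 22 rose and 0 fell in the DT libraries by edgeR's quasi-likelihood test on the counts, at a Benjamini-Hochberg adjusted p under 0.05 over all 15132 genes tested. All 40 members had passed the filter on low counts. They were chosen with earlier results of these data known, so their shares below are not independent of these data. Over all genes tested, 17.2% rose and 11.9% fell, so 55.0% of the members stood against that 17.2%. Among the 9193 genes tested with a mean of at least 10 CPM, 20.1% rose, at a median log2 fold change of 0.040. Of all calls 59.2% were higher in DT, and 47.5% when libraries were scaled by size alone, which moved the median of all genes to -0.109. Under that scaling 19 members rose and 0 fell. At an unadjusted p under 0.05, 25 members were higher and 0 lower, and DESeq2 called 24 higher and limma-voom 21, each with 0 lower. The median log2 fold change of the members was 0.57 (1.49-fold), from -0.079 for Tcof1 to 1.49 for Nop58 and Rrp12, and that of all genes tested was -0.011. Among the members 8 of 40 rose by more than 2-fold, where 8.76% of all genes did. All 3 DT libraries lay above all 3 saline libraries for 23 members, against 25.4% of all genes, and all below for 0 members, against 20.5%. In this bulk RNA more transcript per cell and a changed mix of cells cannot be told apart.

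**Figure D1:**
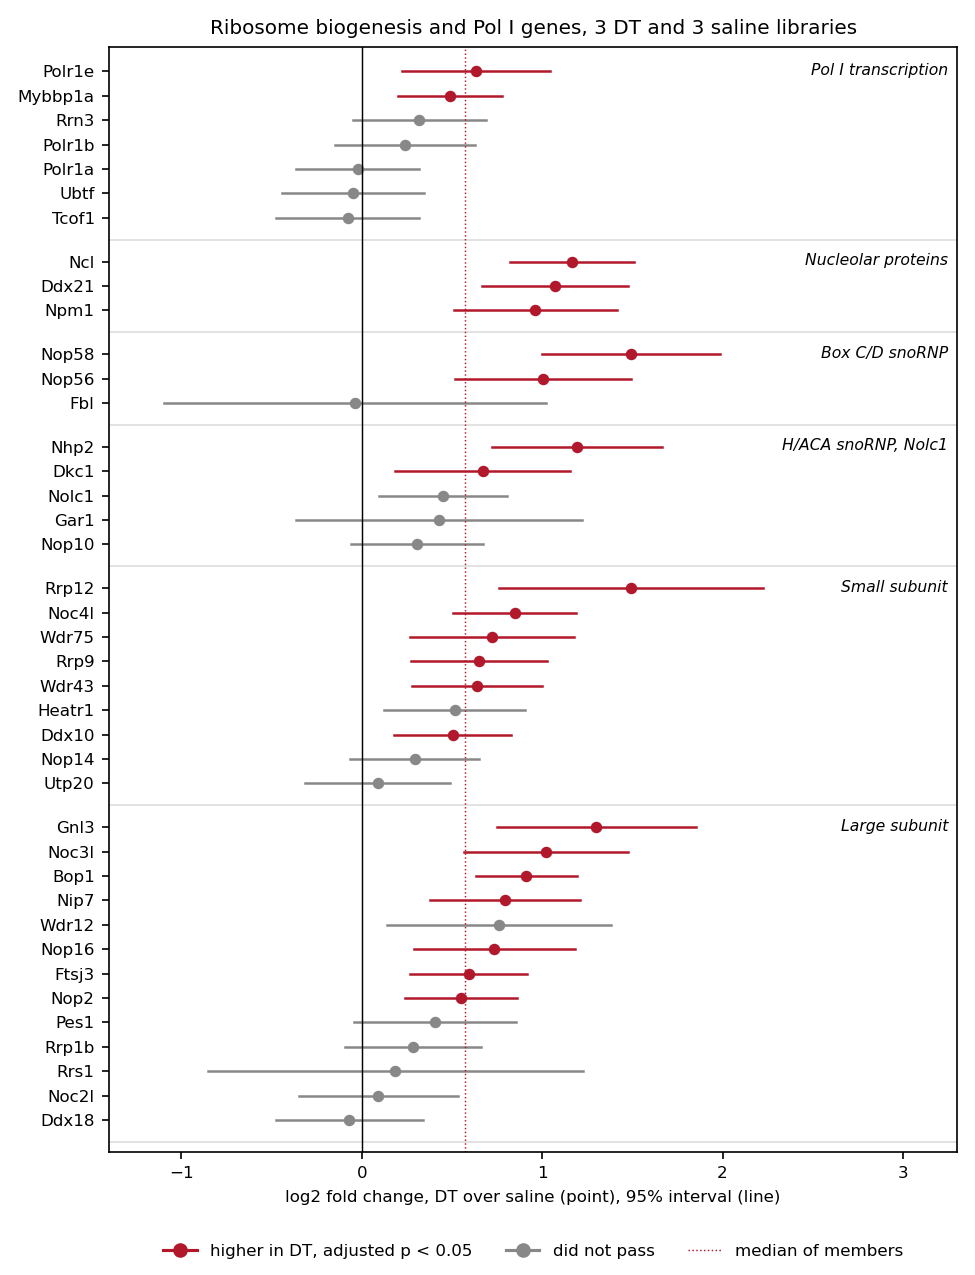
The log2 fold change of each of the 40 members is plotted, DT over saline, as a point with its 95% interval from edgeR's fit (3 libraries per group), grouped by role. The 22 members that passed are in red and reach from 0.49 to 1.49, and the dotted line marks the members' median of 0.57.

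Summed over the members, the level was 3973, 5871 and 4853 CPM in DT, against 2795, 2779 and 2967 CPM in saline. The groups did not overlap, and the DT libraries differed more among themselves (mean 4899 ± 950.0 CPM, SD) than the saline libraries (2847 ± 104 CPM). DT library 2 was the highest DT library for 33 of the 40 members, and DT library 1 the lowest for 29. The 18 listed genes of DNA replication and mitosis all rose, where 17.2% of all genes did. Their sum was also lowest in DT library 1 and highest in DT library 2. It was 1603, 2991 and 2785 CPM in the DT libraries and 464, 431 and 454 CPM in the saline libraries. Among them Mki67, a marker of cycling cells, was at 93.7 ± 33.3 CPM in DT and 10.97 ± 7.06 CPM in saline (log2 fold change 3.09, adjusted p = 0.000816; 3.75 without saline library 1), and Cdk1, the kinase of mitotic entry, at 167 ± 64.3 CPM in DT and 9.62 ± 0.569 CPM in saline (log2 fold change 4.11, adjusted p = 3.45e-05). Their part in the members' change was not tested.

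**Figure D2:**
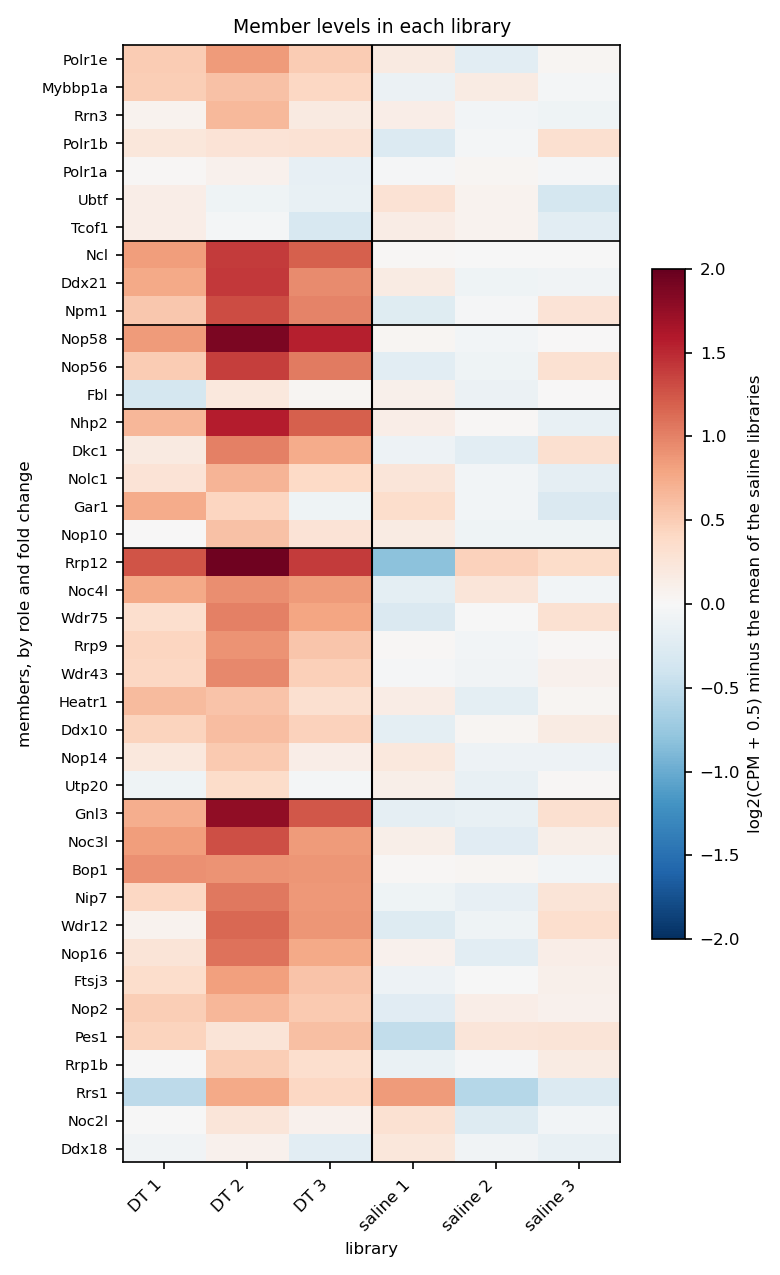
The level of each member (rows, by role and fold change) is shown in each library (columns, 3 DT then 3 saline) as log2(CPM + 0.5) minus the mean of the saline libraries. The members' median on this scale was 0.42, 0.79 and 0.51 in DT and reached from -0.054 to 0.027 in saline.

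Leaving out single libraries changed the count of members that rose. It was 11 without DT library 2, 12 without DT library 3 and 13 without saline library 2, and 20 to 25 without any 1 of the other 3. The same 10 members rose under all 17 alternatives tried: Ncl, Npm1, Ddx21, Nop56, Nop58, Nhp2, Rrp12, Bop1, Noc3l and Gnl3. The other 12 lost the call under at least 1 alternative, Noc4l under 1 and Dkc1 under 10. All 12 lost it in the larger of the 2 number series of the sample identifiers, which holds 2 libraries per group.

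Promoter sequences are shown for some members, and not for every member that rose. RefSeq promoter windows of GRCm38.p6 (250 bases before to 50 after a start) were found for 34 of the 40 members. The windows were searched for the E-box CACGTG, the site bound by Myc and Max, and for CCGGAAG, a core of ETS-family sites, on both strands. The first 3 sequences below belong to members that rose by more than 2-fold and kept the call under all 17 alternatives, and the other two to the members with an E-box before the start. Each is the 250 bases before the start, 5′ to 3′ on the gene's strand, with the matches to CACGTG and CCGGAAG in capitals.
Nop58 (chr1:59684756-59685005, plus strand): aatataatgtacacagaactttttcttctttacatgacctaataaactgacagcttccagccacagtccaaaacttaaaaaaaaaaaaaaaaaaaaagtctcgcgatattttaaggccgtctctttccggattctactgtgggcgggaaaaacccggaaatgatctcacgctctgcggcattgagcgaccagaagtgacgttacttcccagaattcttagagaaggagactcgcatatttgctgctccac
Ncl (chr1:86359456-86359705, minus strand): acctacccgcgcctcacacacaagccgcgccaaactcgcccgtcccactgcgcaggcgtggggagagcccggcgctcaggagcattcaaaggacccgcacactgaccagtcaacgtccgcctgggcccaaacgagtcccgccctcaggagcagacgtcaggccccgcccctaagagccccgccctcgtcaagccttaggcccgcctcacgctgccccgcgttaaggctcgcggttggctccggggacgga
Nhp2 (chr11:51619523-51619772, plus strand): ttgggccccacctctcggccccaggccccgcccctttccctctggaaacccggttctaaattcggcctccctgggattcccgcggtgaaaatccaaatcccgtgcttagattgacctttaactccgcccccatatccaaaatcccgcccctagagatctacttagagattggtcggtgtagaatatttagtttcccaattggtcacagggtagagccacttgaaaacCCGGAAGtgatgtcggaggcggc
Nop2 (chr6:125131633-125131882, plus strand): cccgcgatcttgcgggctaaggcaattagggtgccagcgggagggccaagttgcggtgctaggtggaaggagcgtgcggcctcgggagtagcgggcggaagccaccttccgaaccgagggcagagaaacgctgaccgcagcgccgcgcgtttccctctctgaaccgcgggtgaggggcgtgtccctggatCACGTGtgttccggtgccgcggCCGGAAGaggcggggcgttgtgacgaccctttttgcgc
Rrn3 (chr16:13780449-13780698, plus strand): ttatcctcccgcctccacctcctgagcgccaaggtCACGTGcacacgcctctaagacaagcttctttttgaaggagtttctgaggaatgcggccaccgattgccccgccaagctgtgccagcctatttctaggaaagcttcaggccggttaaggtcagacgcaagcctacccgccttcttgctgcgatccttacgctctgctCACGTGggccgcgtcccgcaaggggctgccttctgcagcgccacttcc

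An E-box was present in the 300-base window of 6 of 34 members (17.6%), against 11.4% of the 11202 genes tested that have a window and 8.09% of all 27025 genes with one. The 6 were Nop2, Mybbp1a and Wdr43, which rose, and Rrn3, Pes1 and Utp20, which did not pass. Rrn3 held 2 copies, starting 215 and 48 bases before the start, and Nop2 held 1 at 60 bases. CCGGAAG or its complement was found in 11 of 34 members (32.4%), against 19.1% of the genes tested and 9.93% of all genes with a window. Of these 11, 6 rose, and of all 34 members with a window 19 rose. Among the 6, Nhp2 held a copy 23 bases before its start and Nop2 one at 38 bases. Neither Nop58 nor Ncl held either motif in the bases shown. CACGTG and CCGGAAG cannot overlap each other. The median GC content of the 250 bases was 57.6% for the members' windows and 59.2% for those of the genes tested. These are matches of letters in these windows and describe no binding.

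Among the 7 members that act in Pol I transcription, Polr1e and Mybbp1a rose (28.6%, against 17.2% of all genes) and the other 5 did not pass. The median log2 fold change of the 7 was 0.24. Polr1a, the largest subunit, which carries the catalytic centre together with Polr1b, was at 29.3, 30.6 and 25.8 CPM in DT, against 28.6, 29.8 and 28.6 CPM in saline. The log2 fold change of Polr1a was -0.022 (95% interval -0.36 to 0.32, adjusted p = 0.927). Polr1b was at 43.1, 44.8 and 45.1 CPM in DT, against 30.3, 36.0 and 46.2 CPM in saline. The log2 fold change of Polr1b was 0.24 (95% interval -0.15 to 0.63, adjusted p = 0.329). The groups overlapped for both, and the interval of Polr1a excludes a rise beyond 0.32 on the log2 scale. Polr1e, a subunit that with its partner helps Pol I initiate and elongate, was at 26.6, 33.6 and 26.4 CPM in DT, against 20.9, 15.9 and 18.9 CPM in saline. Its groups did not overlap (log2 fold change 0.63, SE 0.18, adjusted p = 0.0278), but the call was lost with scaling by library size and without DT library 2 or 3 or saline library 2 or 3 (adjusted p up to 0.134 over all alternatives).

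Rrn3, the factor that makes Pol I competent for initiation, was at 180.0, 269 and 194 CPM in DT, against 188, 165 and 162 CPM in saline. DT library 2 stood highest and DT library 1 lay within the saline range (log2 fold change 0.32, 95% interval -0.049 to 0.69, adjusted p = 0.174). Ubtf, the architectural factor that binds along the ribosomal DNA, was at 77.4, 66.4 and 63.5 CPM in DT, against 86.2, 73.5 and 54.8 CPM in saline, and the groups overlapped (log2 fold change -0.05, 95% interval -0.44 to 0.34, adjusted p = 0.853). Tcof1, or treacle, which ties Ubtf and Pol I to early processing, was at 36.5, 32.4 and 26.5 CPM in DT, against 37.0, 34.9 and 28.8 CPM in saline, also with overlap (log2 fold change -0.079, 95% interval -0.47 to 0.32, adjusted p = 0.767). Mybbp1a, a nucleolar protein that links ribosomal DNA transcription with processing, was at 175, 187 and 166 CPM in DT, against 115, 140.2 and 121 CPM in saline. Every DT library exceeded every saline library by a modest margin (log2 fold change 0.49, SE 0.13, adjusted p = 0.0189), and the call was lost without DT library 2 or 3 or saline library 1 or 3 (adjusted p up to 0.147 over all alternatives).

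**Figure D3:**
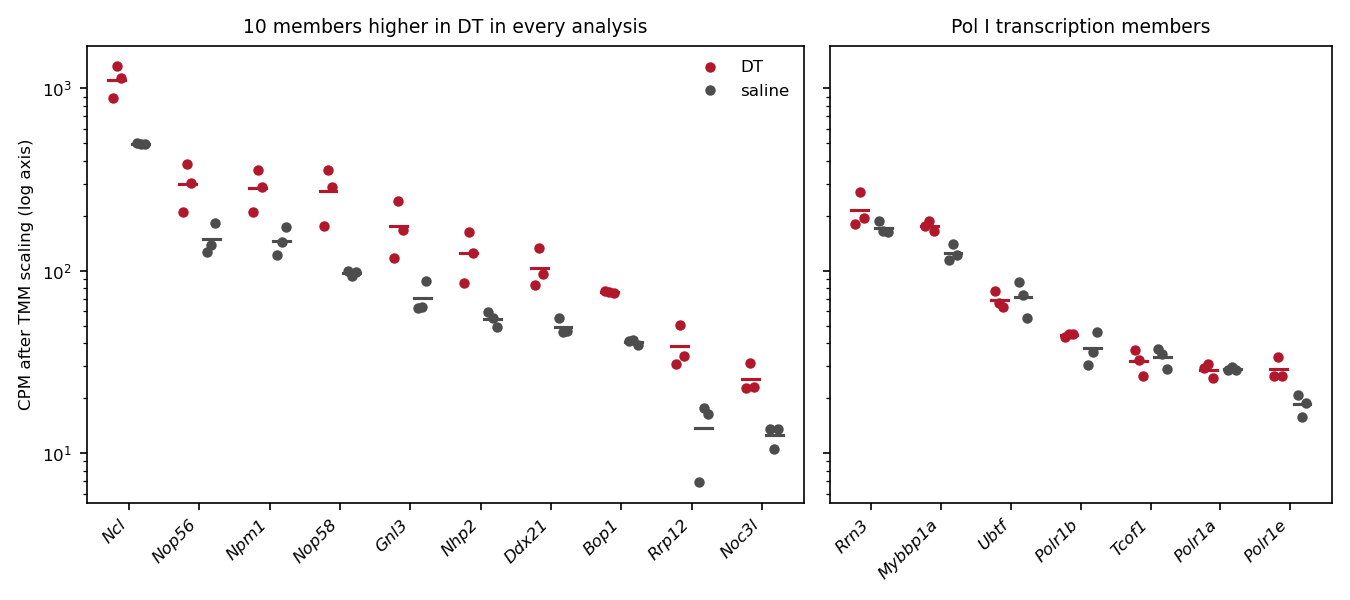
Levels in CPM after TMM scaling (log axis) are plotted for the 10 members that rose under every alternative (left) and for the 7 members of Pol I transcription (right), each with 3 DT points left of 3 saline points and bars at the group means. Ncl reaches 1318 CPM in DT and 503 CPM in saline at most, and the DT and saline points of Polr1a lie between 25.8 and 30.6 CPM.

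All 3 abundant nucleolar proteins of the list rose, where 17.2% of all genes did, at a median log2 fold change of 1.07. Ncl (Entrez 17975, chromosome 1 from 86344719 to 86359455 in GRCm38.p6), nucleolin, a chaperone of the precursor RNA that also binds ribosomal DNA chromatin, was at 888, 1318 and 1139 CPM in DT, against 503, 494 and 495 CPM in saline. The saline libraries lay close together and every DT library was far above them (log2 fold change 1.17, SE 0.15, adjusted p = 0.000691). Npm1, nucleophosmin, a histone and ribosome chaperone of the outer nucleolus, was at 210.1, 357 and 287 CPM in DT, against 122, 143 and 174 CPM in saline. Npm1 changed by 0.96 in log2 terms (SE 0.20, adjusted p = 0.00696). Ddx21, an RNA helicase that acts in Pol I transcription and early processing, was at 83.8, 132 and 95.5 CPM in DT, against 55.0, 46.1 and 47.0 CPM in saline. Ddx21 changed by 1.07 in log2 terms (SE 0.18, adjusted p = 0.00237). For both, the highest saline library stayed below the lowest DT library.

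Of the 3 core proteins of box C/D snoRNPs, which guide methylation of ribosomal RNA, 2 rose (66.7%, against 17.2% of all genes). The median log2 fold change of the 3 was 1.005. Nop58 (Entrez 55989, chromosome 1 from 59684961 to 59711510) was at 176, 358 and 286 CPM in DT, against 99.96, 93.8 and 97.7 CPM in saline, with no overlap (log2 fold change 1.49, SE 0.22, adjusted p = 0.00123). Its paralogue and partner Nop56 was at 209.8, 385 and 303 CPM in DT, against 127, 139 and 182 CPM in saline. Nop56 changed by 1.005 in log2 terms (SE 0.22, adjusted p = 0.00806). In DT library 1 both were lowest among the DT libraries and still above every saline library. Fbl, fibrillarin, the methyltransferase of the same particle, was at 0.797, 1.41 and 1.198 CPM in DT, against 1.28, 1.02 and 1.17 CPM in saline, the lowest level of any member in both groups (log2 fold change -0.037, 95% interval -1.10 to 1.02, adjusted p = 0.961). Of the 50-base stretches of the Fbl transcript (GENCODE vM21), 73.0% also occur in transcripts of 3 other genes, and reads with more than 1 alignment were left out of the counts, per the file headers. The same share was 62.7% for Ddx18, 40.9% for Npm1, 37.6% for Nop56, 24.1% for Pes1 and 19.4% for Noc2l. It was under 10% for the other 34. For Noc2l the main other gene was Samd11, which overlaps it on the opposite strand, and the effect on its count was not tested. The levels of Fbl, Ddx18, Npm1, Nop56 and Pes1 may be understated because of copies in other genes. The part of such copies in the level of Fbl was not tested.

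Among the 4 core proteins of box H/ACA snoRNPs, which guide pseudouridylation, Nhp2 and Dkc1 rose, and Nop10 and Gar1 did not pass. Of these and Nolc1, 40% rose, against 17.2% of all genes, at a median log2 fold change of 0.45. Nhp2 was at 86.0, 163 and 126 CPM in DT, against 59.7, 54.9 and 48.9 CPM in saline. Nhp2 changed by 1.19 in log2 terms (SE 0.21, adjusted p = 0.00309). Dkc1, dyskerin, the pseudouridine synthase, was at 123, 219 and 182 CPM in DT, against 100.4, 93.1 and 136 CPM in saline. Its groups overlapped, since saline library 3 exceeded DT library 1 (log2 fold change 0.67, SE 0.22, adjusted p = 0.0432), and the call was lost with limma-voom, with scaling by library size and without DT library 2 or 3 or saline library 1 or 2 (adjusted p up to 0.199). Nop10, the smallest core protein, was at 122, 184 and 148 CPM in DT, against 136, 115 and 115 CPM in saline, with DT library 1 inside the saline range (log2 fold change 0.31, 95% interval -0.057 to 0.67, adjusted p = 0.185), and it passed without that DT library (log2 fold change 0.43, adjusted p = 0.0498). Gar1 was at 5.44, 4.30 and 2.83 CPM in DT, against 4.02, 2.91 and 2.39 CPM in saline, with overlap and a wide interval (log2 fold change 0.43, 95% interval -0.36 to 1.22, adjusted p = 0.396), and 0% of its 50-base stretches occur in other genes. Nolc1, a chaperone of both snoRNP classes that also binds treacle, was at 106, 139.9 and 116 CPM in DT, against 104, 84.0 and 77.0 CPM in saline. Its DT libraries all lay above its saline libraries, by little in DT library 1, and it did not pass (log2 fold change 0.45, 95% interval 0.093 to 0.80, adjusted p = 0.0592). It passed without saline library 1 (adjusted p = 0.0338), without DT library 1 (adjusted p = 0.0351) and with consecutive sample identifiers as pairs (adjusted p = 0.0224).

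Of the 9 members of the small subunit processome and its later steps, 6 rose (66.7%, against 17.2% of all genes). The median log2 fold change of the 9 was 0.64. Rrp12, a HEAT-repeat protein of late small subunit assembly and export, was at 30.9, 50.2 and 34.2 CPM in DT, against 6.96, 17.6 and 16.4 CPM in saline. Saline library 1 was far below the other saline libraries, and the log2 fold change was 1.49 with it (SE 0.33, adjusted p = 0.00836) and 1.16 without it (adjusted p = 0.00874). Noc4l, a partner of Nop14 in the processome, was at 62.4, 70.4 and 66.5 CPM in DT, against 32.1, 43.3 and 35.4 CPM in saline, and the DT libraries varied little (log2 fold change 0.85, SE 0.15, adjusted p = 0.00348). Wdr43, a processome protein that couples Pol I transcription with processing, was at 136, 197 and 141 CPM in DT, against 99.8, 96.5 and 108 CPM in saline. Wdr43 changed by 0.64 in log2 terms (SE 0.16, adjusted p = 0.0154). Its groups did not overlap, and its call was lost without DT library 2 or saline library 2.

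Rrp9, which belongs to the U3 particle, Wdr75, of the same early complex as Wdr43, and the helicase Ddx10 rose by 1.57-, 1.65- and 1.42-fold (adjusted p = 0.018, 0.0246 and 0.027), and each lost its call without DT library 2 or 3 or saline library 2. Without saline library 1 the calls of Wdr75 (adjusted p = 0.0796) and Ddx10 (adjusted p = 0.082) were also lost, and that of Ddx10 also with scaling by library size. Heatr1, another protein of the early complex, was at 33.2, 31.8 and 26.5 CPM in DT, against 23.7, 18.4 and 21.9 CPM in saline. All its DT libraries were above all its saline libraries, and it did not pass (log2 fold change 0.51, 95% interval 0.12 to 0.90, adjusted p = 0.0502). Heatr1 passed with DESeq2 (adjusted p = 0.0404) and without saline library 1 (adjusted p = 0.0473). Nop14 was at 59.1, 73.9 and 55.8 CPM in DT, against 59.0, 47.6 and 47.5 CPM in saline, where DT library 3 lay below saline library 1 (log2 fold change 0.29, 95% interval -0.065 to 0.65, adjusted p = 0.198). Utp20, a very large scaffold protein, was at 24.6, 33.8 and 25.6 CPM in DT, against 28.6, 23.7 and 26.7 CPM in saline, with overlap (log2 fold change 0.087, 95% interval -0.31 to 0.49, adjusted p = 0.745).

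Of the 13 members of large subunit assembly, 7 rose (53.8%, against 17.2% of all genes). The median log2 fold change of the 13 was 0.59. Bop1, Pes1 and Wdr12 form the PeBoW complex, which acts in the making of the large subunit RNAs. Bop1 (Entrez 12181, chromosome 15 from 76452988 to 76477249) was at 77.5, 76.8 and 75.6 CPM in DT, against 41.2, 41.9 and 39.2 CPM in saline. Bop1 changed by 0.91 in log2 terms (SE 0.13, adjusted p = 0.000862), and its DT libraries had the smallest relative spread of the members that rose. Wdr12 was at 18.9, 40.6 and 33.6 CPM in DT, against 14.96, 17.02 and 23.0 CPM in saline, and Pes1 at 95.7, 83.8 and 107 CPM in DT, against 49.8, 83.2 and 83.8 CPM in saline. Both overlapped between groups and did not pass (Wdr12 log2 fold change 0.76, 95% interval 0.14 to 1.38, adjusted p = 0.066; Pes1 log2 fold change 0.41, 95% interval -0.045 to 0.85, adjusted p = 0.16), and whether their changes differ from that of Bop1 was not tested. Wdr12 passed with DESeq2, with no filter on low counts and without DT library 1, and Pes1 with consecutive sample identifiers as pairs (adjusted p = 0.048).

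Gnl3, nucleostemin, a GTPase first described in stem cells and abundant in dividing cells, was at 117, 242 and 168 CPM in DT, against 62.3, 63.5 and 87.7 CPM in saline. Saline library 3 was the highest of its group and still below DT library 1 (log2 fold change 1.30, SE 0.25, adjusted p = 0.00433). Noc3l, which works with Noc2l in large subunit assembly, was at 22.6, 31.1 and 22.9 CPM in DT, against 13.6, 10.6 and 13.6 CPM in saline. Noc3l changed by 1.02 in log2 terms (SE 0.20, adjusted p = 0.0054). Noc2l was at 18.3, 21.8 and 19.7 CPM in DT, against 22.9, 15.4 and 17.8 CPM in saline, and its groups overlapped (log2 fold change 0.092, 95% interval -0.35 to 0.53, adjusted p = 0.755). The difference between the pair was not tested, and 20.9% of the exon bases of Noc2l are shared with Samd11 on the other strand. Ftsj3, the methyltransferase known in yeast as Spb1, was at 143, 197 and 166 CPM in DT, against 104, 111 and 119.9 CPM in saline, with no overlap (log2 fold change 0.59, SE 0.15, adjusted p = 0.0139).

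Nip7, Nop16 and the RNA methyltransferase Nop2 rose by 1.73-, 1.67- and 1.46-fold (adjusted p = 0.0114, 0.0211 and 0.0152). These and Ftsj3 lost the call without DT library 2 or 3, and all but Nop2 also without saline library 2. Rrp1b, a nucleolar partner of protein phosphatase, was at 43.0, 61.3 and 54.6 CPM in DT, against 39.3, 42.3 and 48.7 CPM in saline, with overlap (log2 fold change 0.29, 95% interval -0.091 to 0.66, adjusted p = 0.231). Rrs1 was at 2.91, 7.86 and 6.07 CPM in DT, against 8.33, 2.82 and 3.56 CPM in saline, with saline library 1 above all other libraries (log2 fold change 0.18, 95% interval -0.85 to 1.22, adjusted p = 0.793). It was 0.79 without that library and -0.15 without DT library 2, and did not pass either way. The helicase Ddx18 was at 20.5, 22.9 and 18.6 CPM in DT, against 25.2, 20.4 and 19.3 CPM in saline, with overlap (log2 fold change -0.068, 95% interval -0.47 to 0.34, adjusted p = 0.804).

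Levels per length were compared with the authors' RPKM. In the DT libraries the order ran from Nop10, at 194 ± 42.9 RPKM in DT and 156 ± 15.7 RPKM in saline, to Fbl, at 0.925 ± 0.270 RPKM in DT and 0.939 ± 0.110 RPKM in saline. Ncl followed Nop10 in both groups, at 121 ± 25.6 RPKM in DT and 53.6 ± 0.532 RPKM in saline, and Nop58 stood at 120.3 ± 42.2 RPKM in DT and 42.5 ± 1.43 RPKM in saline. In saline Nop10 stood clear of Ncl, while Ncl, Npm1, Nop56, Nhp2 and Nop16 had means from 53.6 down to 50.6 RPKM. Of the 39 neighbouring pairs in this order, 34 had overlapping library ranges in DT and 34 in saline, so single ranks are not resolved. The median member was at 25.5 RPKM in DT and 15.8 RPKM in saline. The 22 members that rose had a median saline level of 27.6 RPKM and the 18 others one of 7.04 RPKM. Low counts make a call harder. The SE was 0.48 for Fbl, 0.36 for Gar1 and 0.47 for Rrs1, against a median of 0.18 for the members. Whether the level goes with the change was not tested. The catalytic subunit Polr1a was at 4.27 ± 0.395 RPKM in DT and 4.33 ± 0.097 RPKM in saline.

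The rest of the pathway was read from 5 further lists with 118 genes, all of them tested. Of these, 38 rose (32.2%, against 17.2% of all genes) and 2 fell, at a median log2 fold change of 0.36. These lists too were chosen with earlier results of these data known. Among 10 other Pol I subunits and initiation factors 2 rose (20%, near the 17.2% of all genes), at a median of 0.18. Taf1d, a part of the promoter selectivity factor, was at 73.8 ± 25.9 CPM in DT and 28.4 ± 4.62 CPM in saline (log2 fold change 1.37, adjusted p = 0.00264), and Polr1d, a subunit shared with Pol III, at 113 ± 18.1 CPM in DT and 70.0 ± 2.32 CPM in saline (log2 fold change 0.70, adjusted p = 0.00662). Its partner Polr1c, at 157 ± 18.9 CPM in DT and 125 ± 4.16 CPM in saline, did not pass (log2 fold change 0.32, adjusted p = 0.09).

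In the list of 45 other small subunit factors 15 rose (33.3%, against 17.2% of all genes). The smallest p-values were those of Pno1, at 59.9 ± 18.4 CPM in DT and 20.0 ± 1.10 CPM in saline (log2 fold change 1.58, adjusted p = 0.00076), Ltv1, at 113 ± 28.7 CPM in DT and 44.7 ± 3.21 CPM in saline (log2 fold change 1.34, adjusted p = 0.000951), and Utp14a, at 78.5 ± 18.5 CPM in DT and 38.0 ± 2.14 CPM in saline (log2 fold change 1.04, adjusted p = 0.00283). Pno1 and Ltv1 act in late maturation of the small subunit, and Utp14a activates a helicase of the processome. Of 40 other large subunit factors 13 rose (32.5%) and 1 fell. Brix1, a core assembly factor, was at 243 ± 51.5 CPM in DT and 120.2 ± 8.67 CPM in saline (log2 fold change 1.02, adjusted p = 0.00179), the GTPase Gnl2 at 273 ± 33.7 CPM in DT and 161 ± 9.04 CPM in saline (log2 fold change 0.76, adjusted p = 0.00283) and Rsl1d1 at 302 ± 40.8 CPM in DT and 183 ± 19.9 CPM in saline (log2 fold change 0.72, adjusted p = 0.00539). Nol9, an RNA kinase of spacer processing, was lower, at 17.9 ± 5.01 CPM in DT and 31.2 ± 2.94 CPM in saline (log2 fold change -0.80, adjusted p = 0.0227), and its call was lost without DT library 2 or saline library 3.

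Among 9 snoRNP assembly factors 4 rose (44.4%, against 17.2% of all genes) and 1 fell. Ruvbl2, an ATPase of the R2TP chaperone, was at 115 ± 13.9 CPM in DT and 72.3 ± 4.46 CPM in saline (log2 fold change 0.67, adjusted p = 0.00614), its adaptor Pih1d1 at 55.1 ± 5.61 CPM in DT and 33.9 ± 4.28 CPM in saline (log2 fold change 0.70, adjusted p = 0.00912), and Shq1, the chaperone of dyskerin, at 25.8 ± 0.807 CPM in DT and 15.1 ± 2.25 CPM in saline (log2 fold change 0.77, adjusted p = 0.01; lost without DT library 3). Znhit6, which acts in box C/D snoRNP assembly, was lower, at 82.4 ± 15.6 CPM in DT and 148 ± 8.56 CPM in saline (log2 fold change -0.84, adjusted p = 0.00384), under all 17 alternatives. Of 14 genes of the RNA exosome, which trims precursor RNA, 4 rose (28.6%). Exosc9 was at 96.1 ± 21.9 CPM in DT and 50.3 ± 4.84 CPM in saline (log2 fold change 0.93, adjusted p = 0.00476). Exosc8 was at 155 ± 46.4 CPM in DT and 74.7 ± 4.29 CPM in saline (log2 fold change 1.05, adjusted p = 0.00499). The helicase Mtrex was at 155 ± 14.1 CPM in DT and 117 ± 11.3 CPM in saline (log2 fold change 0.41, adjusted p = 0.0428). The call of Mtrex was lost under 12 of 17 alternatives, every omission of a library but that of DT library 1 among them.

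The other nuclear polymerases were set beside Pol I, with which they share some subunits, Polr1d above and Polr2l below among them. Of 21 Pol III subunits and factors 2 rose (9.52%, against 17.2% of all genes) and 1 fell, at a median log2 fold change of 0.031. Of 13 Pol II subunits 1 rose (7.69%), at a median of 0.20. Polr3gl, a Pol III subunit that replaces Polr3g in differentiated cells, was lower, at 16.4 ± 3.45 CPM in DT and 35.9 ± 4.04 CPM in saline (log2 fold change -1.13, adjusted p = 0.00267). Polr3k was higher, at 169 ± 31.9 CPM in DT and 108 ± 6.16 CPM in saline (log2 fold change 0.65, adjusted p = 0.0114; lost without saline library 2) as was Gtf3c6, at 70.0 ± 11.1 CPM in DT and 47.3 ± 2.44 CPM in saline (log2 fold change 0.57, adjusted p = 0.0206; lost without DT library 2 or 3 or saline library 1 or 2). Polr2l, a subunit common to all nuclear polymerases, was at 25.1 ± 6.45 CPM in DT and 12.8 ± 2.02 CPM in saline (log2 fold change 0.96, adjusted p = 0.0114; lost without DT library 2 or saline library 2). Polr2d (log2 fold change 0.46, adjusted p = 0.0553) and Polr2h (log2 fold change 0.56, adjusted p = 0.0568) followed without passing.

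**Figure D4:**
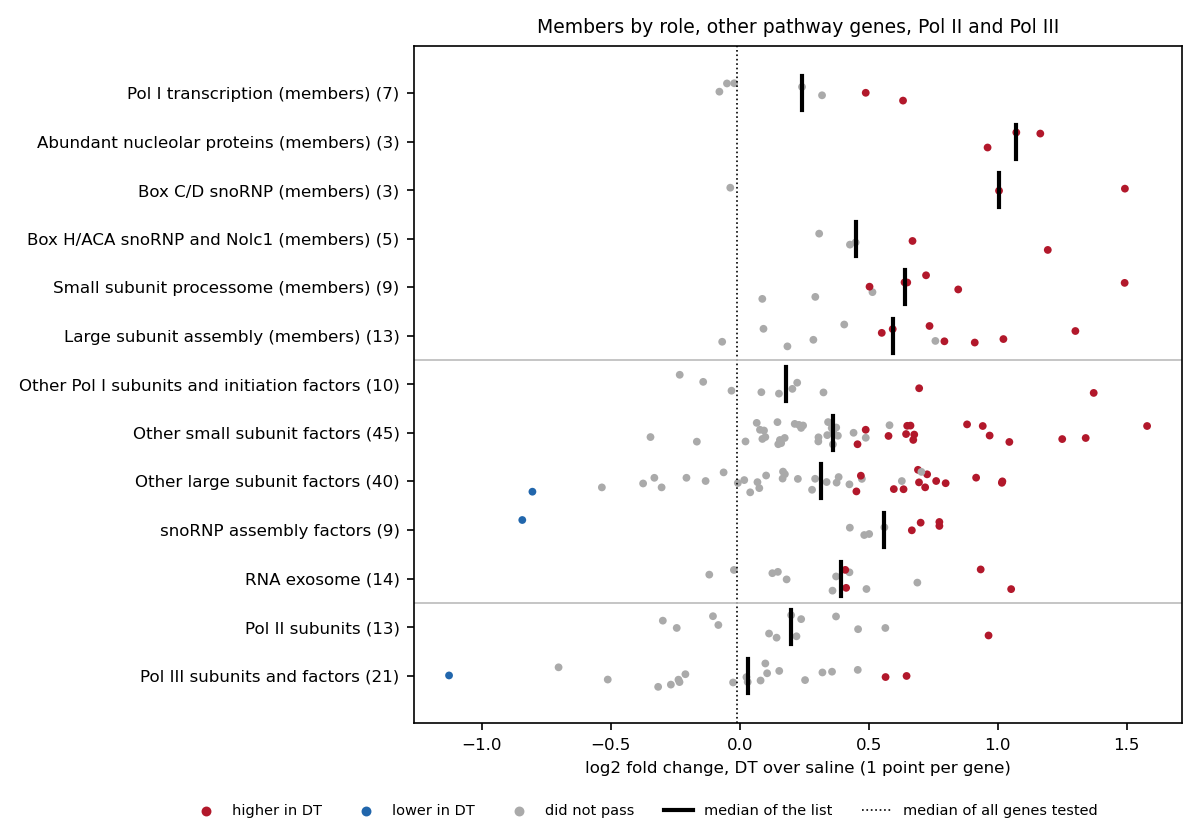
The log2 fold change of each gene, DT over saline, is plotted for the member groups (top), the 5 lists of other pathway genes (middle) and Pol II and Pol III (bottom), with the number of genes tested in parentheses. Black bars mark list medians, from 1.07 for the abundant nucleolar proteins to 0.031 for Pol III, and the dotted line marks the median of all genes tested at -0.011.

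In the network of Myc, 2 of 11 genes rose (18.2%, near the 17.2% of all genes) and 4 fell, where 11.9% of all genes fell. Myc was at 216, 179.7 and 177 CPM in DT, against 142, 133 and 135 CPM in saline. Myc changed by 0.48 in log2 terms (SE 0.13, adjusted p = 0.0199), with no overlap, and lost its call without DT library 3 or saline library 2 or 3. Mxd3, a Max partner seen in dividing cells, was at 16.5 ± 7.51 CPM in DT and 1.62 ± 0.557 CPM in saline (log2 fold change 3.33, adjusted p = 0.000592), and Mxi1, a repressor partner of Max, was lower, at 29.9 ± 8.10 CPM in DT and 58.2 ± 2.81 CPM in saline (log2 fold change -0.96, adjusted p = 0.00634). Mga (log2 fold change -0.50, adjusted p = 0.0158) and Mycl (log2 fold change -0.9965, adjusted p = 0.0379) fell too.

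Markers of other cell types moved as well. Of 14 immune markers tested 8 fell and 1 rose, where 11.9% of all genes fell and 17.2% rose. The summed level of the 16 in the files was 131 to 163 CPM in DT and 206 to 292 CPM in saline. The 8 fibroblast markers summed to 119 to 174 CPM in DT and 228 to 390 CPM in saline, most of it Fbln1, with Lum at 0 in all libraries and 3 of 4 tested lower. Endothelial markers summed to 10.2 to 14.97 CPM in DT and 5.27 to 39.0 CPM in saline, and melanocyte markers to 8.73 to 10.6 CPM in DT and 13.5 to 29.8 CPM in saline. The 6 smooth muscle and pericyte markers summed to 27.0 to 109 CPM in DT and 2.54 to 4.78 CPM in saline. Most of the sum in DT was Acta2. Both tested genes of that list rose, and its other genes did not pass the filter on low counts. Acta2 was at 71.0 ± 42.1 CPM in DT and 0.867 ± 0.264 CPM in saline (log2 fold change 6.34, adjusted p = 8.94e-05) and Tagln at 5.80 ± 1.78 CPM in DT and 2.44 ± 1.05 CPM in saline (log2 fold change 1.24, adjusted p = 0.0369), while Rgs5 was at 0 in every library. These markers and Fbln1 were named after their values were seen. The part of these cells in the members' levels was not tested.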

How the data were processed

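RNA of sorted skin cells was extracted with an RNeasy Micro column, DNase digestion included, per the labels' protocols. The submitters' processing notes name GSNAP and GRCm38. The aligner version, annotation and strand setting were not given in the sources used here. The deposited counts are numbers of reads that align uniquely to a gene model, per the file headers, so genes with near-identical copies are under-counted. The deposited RPKM values carry a size factor, per the file headers, and were exact rescalings of the counts. Symbols came from RefSeq (GRCm38.p6), which names 31049 of 36528 identifiers.

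The test was edgeR 4.0.16 under R 4.3.3 (filterByExpr at count 10 and total 15, TMM, robust quasi-likelihood test without covariates, Benjamini-Hochberg over 15132 genes, threshold 0.05). The same code was also run on simulated counts, with dispersions taken from this fit. The residual degrees of freedom were 4 and the biological coefficient of variation 0.233. Log2 fold changes are DT minus saline, intervals cover 95%, and no list was tested as a set. Libraries were numbered 1 to 3 within a group in record order, so equal numbers pair nothing.

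Values in every library are given for the 3 members of each role with the smallest p, the member with the highest mean CPM and every member that did not pass; of each other list the 3 genes with the smallest p and up to 3 that fell are named. Members and lists were chosen with earlier results of these data known. Alternatives were DESeq2 1.42.0 size factors, library size only, 2 other filters, DESeq2, limma-voom and limma 3.58.1 on log2(RPKM + 1) and log2(RPKM + 0.1), the number series of the sample identifiers as a block, as pairs and alone, and each library left out; for named genes other than the members they were chosen after seeing the data.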

Additional observations from a re-analysis of the deposited data

How the results depend on the processing

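The count of members that rose was 19 to 24 with the other scalings, filters and tools, against 22 with the test as reported, and 0 members fell in all 17 alternatives. The sample identifiers form 2 number series, and in the larger one alone, with 2 libraries per group, 10 members rose, 12 other pathway genes rose and 1 fell, and 1097 of all genes rose and 473 fell. With the number series as a block 22 members rose. With consecutive identifiers as a pair (replicate block), a pairing that no label states, 24 rose. Leaving out 1 library at a time gave 11 to 25 members that rose, 23 to 44 other pathway genes that rose and 1 to 3 that fell, and 1564 to 2826 of all genes that rose and 996 to 2045 that fell. These drops come with fewer samples, and their cause was not tested. The members' median log2 fold change stayed at 0.45 to 0.64 across the alternatives. Of the single members' 680 values under alternatives, 55 lost a call and 10 gained one, and no called value changed sign. The wide intervals of Fbl, Gar1 and Rrs1 go with their low counts.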
